A study of Mus musculus with 6 samples.

Results

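The keratins are the intermediate filament proteins of epithelial cells, and their genes were followed here in cultured mouse epidermal keratinocytes. The members are all rows of the gene count table whose symbol is Krt followed by a number, with or without a closing a or b, which gives 52 of 23420 genes. Of these, 28 encode type I (acidic) and 24 type II (basic to neutral) chains. The type I genes lie on mouse chromosome 11, apart from Krt18 on chromosome 15, where the type II genes lie. One of them, Krt85, has no position in the annotation used. Messenger RNA was sequenced from 6 samples of epidermal keratinocytes grown in low-calcium medium, used at passage 8 to 10 and given 1 µM 4-hydroxytamoxifen for 6 hours. Every sample, the controls included, carried loxP-flanked (floxed) alleles of Gata6, a GATA-family transcription factor (Gata6 fl/fl). The 3 libraries labelled iKO also carried K14CreERT2, a tamoxifen-activated Cre recombinase under the keratin 14 promoter, and the 3 labelled WT did not carry it. No group received vehicle alone and none carried Cre without floxed Gata6. The libraries are called WT 2, WT 3, WT 4, iKO 3, iKO 4 and iKO 33 by the numbers in their column names.

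Keratin filaments are built from obligate pairs of a type I and a type II chain. In the epidermis the dividing basal layer makes Krt5 with Krt14. Cells that leave that layer switch to Krt1 with Krt10. Injured or hyperproliferative epidermis, and keratinocytes placed in culture, make Krt6a, Krt6b, Krt16 and Krt17. Krt8 with Krt18 is the pair of simple, single-layered epithelia and of the embryonic surface ectoderm, and in adult skin it marks Merkel cells, the touch receptors. Other members belong to the hair shaft and to the inner root sheath, the layer that surrounds the growing hair.

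Krt8 and Krt18 are neighbouring protein-coding genes in mm10. Their promoters are shown because these were the keratins with the largest fold changes between the groups. Krt8 lies on the minus strand at chr15:101996698-102004482 and Krt18 on the plus strand at chr15:102028180-102032027, with 23697 bases between them. A long noncoding RNA gene, Gm36026 (chr15:102004212-102009442, plus strand), overlaps the start of Krt8 and covers the Krt8 window shown. The Krt10 and Krt5 promoters are shown as those of a suprabasal keratin with lower values in iKO and of the highest-expressed type II keratin. Each run is the 250 bases before the annotated start in RefSeq, build GRCm38.p6, read 5′ to 3′ along the gene. The RefSeq starts of Krt8 and Krt18 lie inside the gene positions given above, which come from GENCODE M21. Their windows therefore overlap those positions in part. Capitals mark matches to the GATA motif (the words AGATAA and AGATAG, and also TGATAA and TGATAG) or to the TATA box word TATAAA, each searched on both strands, and matches of the 2 kinds did not overlap in the windows shown. The windows are chr15:102004343-102004592 (minus strand) for Krt8, chr15:102027966-102028215 (plus) for Krt18, chr11:99389365-99389614 (minus) for Krt10 and chr15:101712906-101713155 (minus) for Krt5.
Krt8: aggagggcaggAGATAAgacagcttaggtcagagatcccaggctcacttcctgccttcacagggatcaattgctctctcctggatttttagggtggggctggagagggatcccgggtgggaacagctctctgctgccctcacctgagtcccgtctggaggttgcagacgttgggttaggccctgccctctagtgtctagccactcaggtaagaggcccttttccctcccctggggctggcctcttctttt
Krt18: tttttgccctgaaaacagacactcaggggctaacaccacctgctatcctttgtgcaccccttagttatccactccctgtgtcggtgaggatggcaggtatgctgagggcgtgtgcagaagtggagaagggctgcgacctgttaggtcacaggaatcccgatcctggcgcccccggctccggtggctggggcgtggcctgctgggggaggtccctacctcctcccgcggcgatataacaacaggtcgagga
Krt10: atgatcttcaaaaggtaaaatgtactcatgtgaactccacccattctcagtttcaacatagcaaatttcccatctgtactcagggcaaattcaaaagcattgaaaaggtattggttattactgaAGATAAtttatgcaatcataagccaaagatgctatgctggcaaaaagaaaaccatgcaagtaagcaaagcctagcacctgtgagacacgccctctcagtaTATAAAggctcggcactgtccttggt
Krt5: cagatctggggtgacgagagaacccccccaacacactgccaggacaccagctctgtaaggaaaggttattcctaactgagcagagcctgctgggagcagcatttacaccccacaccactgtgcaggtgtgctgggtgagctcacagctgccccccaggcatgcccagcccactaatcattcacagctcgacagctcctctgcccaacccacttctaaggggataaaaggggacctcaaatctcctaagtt
The Krt8 window holds 1 GATA word, AGATAA, which begins 239 bases before the start. The Krt10 window holds AGATAA 126 bases and TATAAA 26 bases before the start. The Krt18 and Krt5 windows hold neither word, which says only that these letters are not in those windows. RefSeq promoters were matched for 35 of the 52 keratins, with 36 windows in all. A GATA word was present in 15 of the 36 (41.67%), beside 8717 of all 32841 promoters (26.54%). TATAAA was present in 17 of the 36 keratin windows (47.22%), beside 4062 of all promoters (12.37%). Keratin genes arose by duplication, so their promoters are not independent of one another, and a match is a description and not a binding site.

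Gene counts ran from 21943467 in WT 2 to 83337263 in iKO 33. Nothing in the labels ties the replicates to different cultures or mice, so the p-values below reflect only how much these libraries varied, and that variation may be technical. The label check on the targeted gene went the other way: Gata6 stood at 0.519 to 5.37 CPM (counts scaled by library size) in the libraries labelled WT and at 14.2 to 21.0 CPM in those labelled iKO. Counting reads over the whole gene cannot show whether the floxed part was present. WT and iKO therefore stand below for the libraries labelled so. Whether the labels were exchanged was not tested, and an exchange would turn the sign of every iKO minus WT value, those of Krt8, Krt18, Krt10 and Trp63 included. Xist, expressed from the inactive X chromosome of female cells, stood at 605 to 889 CPM in WT and 0.0824 to 2.62 CPM in iKO, while 4 Y-linked genes summed to 0.0885 to 0.365 and 91.8 to 142 CPM. Sex chromosome content and the group label therefore cannot be told apart in any comparison below. Keratinocyte markers were present in all libraries (9 of 9 genes passing the count filter, summing to 7746 to 9798 CPM in WT and 7991 to 10943 CPM in iKO).

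Of the 52 keratins 4 had no count in any library, and 26 (11 type I and 15 type II) passed the filter on low counts, as 12672 genes did in all. In edgeR's quasi-likelihood test with Benjamini-Hochberg adjustment over all 12672 genes, 0 of the 26 passed an adjusted p of 0.05, where 0.339% of all genes did. At an unadjusted p under 0.05 there were 2 keratins with higher values in iKO, Krt8 and Krt18, where 7.32% of all genes were in that class. There were 3 with lower values, Krt10, Krt15 and Krt7, where 7.7% of all genes were. The 3 WT and 3 iKO values did not overlap for 2 keratins that stood higher in iKO (Krt8 and Krt18; 10.5% of all genes) and 2 that stood lower (Krt1 and Krt10; 11.3% of all genes). DESeq2, a second count model, gave 2 keratins higher in iKO at an adjusted p under 0.05 (Krt8 and Krt18; 3.34% of all genes) and 1 lower (Krt10; 3.15%). limma-voom gave 0. For 26 members these shares come to only a few genes each, so the counts are too small to set the keratins apart from all genes. Over the 26 keratins, 11 fitted changes were positive and 15 negative, with a median log2 fold change (iKO minus WT) of -0.09, beside 0.01 over all genes.

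**Figure D1:**
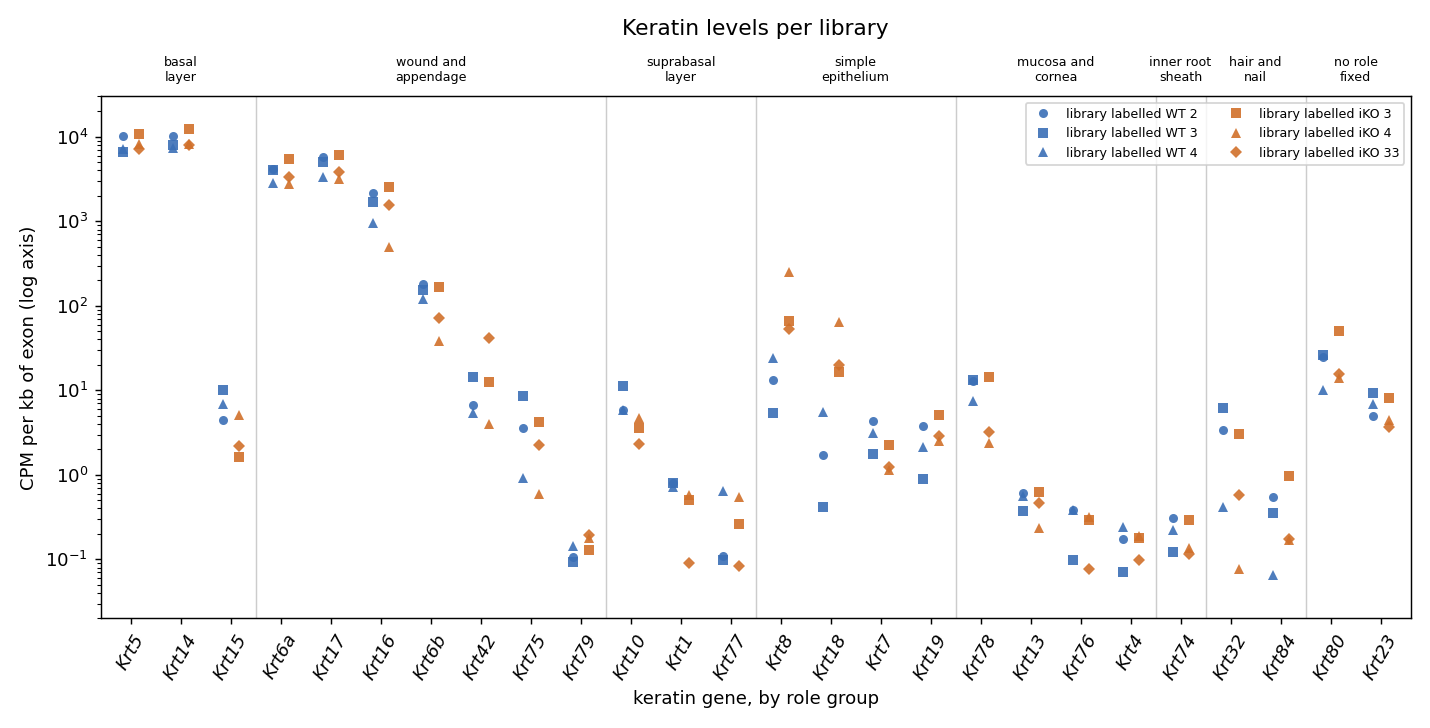
Level of each keratin that passed the count filter, in CPM per kilobase of exon on a log axis, by role group, with 1 point per library (blue for WT, orange for iKO, shapes for the library number). Krt5, Krt14, Krt6a, Krt17 and Krt16 lie far above the rest, and the points of the groups separate for Krt8, Krt18, Krt10 and Krt1.

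Keratin transcripts came mostly from the basal and the wound-associated genes, and a handful of genes supplied nearly all of them. Keratin genes took 6.26%, 4.95% and 4.40% of gene counts in WT 2, WT 3 and WT 4, and 6.98%, 4.61% and 4.79% in iKO 3, iKO 4 and iKO 33. The means were 5.20% ± 0.958 (SD, n = 3) and 5.46% ± 1.32 (SD, n = 3), and the groups overlap. Krt5, Krt14, Krt6a, Krt17 and Krt16 together supplied 98.7% ± 0.147 of keratin counts in WT and 98.6% ± 0.348 in iKO. Basal keratins made up 63.0% ± 4.86 of keratin counts in WT and 65.7% ± 4.76 in iKO. Wound and appendage keratins made up 36.5% ± 4.80 and 33.3% ± 5.25. Suprabasal keratins were a trace of the total, at 0.0405% ± 0.0150 in WT and 0.0191% ± 0.0102 in iKO. Simple epithelial keratins were a trace as well, at 0.118% ± 0.0726 and 0.619% ± 0.590.

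**Figure D2:**
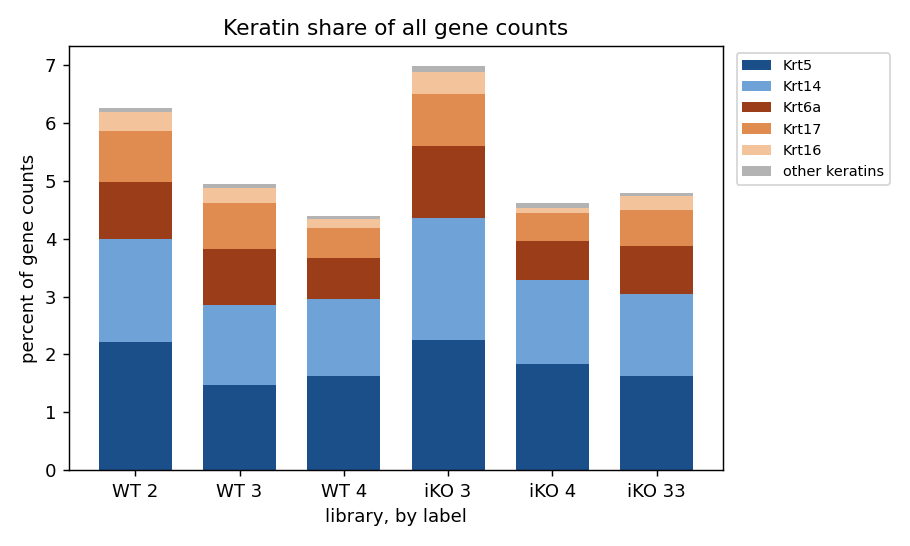
Share of each library's gene counts assigned to keratin genes, in percent, as a stacked bar per library split into Krt5, Krt14, Krt6a, Krt17, Krt16 and all other keratins. The named 5 fill almost the whole bar in all 6 libraries, and total height runs from 4.40% (WT 4) to 6.98% (iKO 3).

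Among the basal keratins, the pair Krt5 and Krt14 stood at like levels in both groups, while the less abundant Krt15 had lower values in iKO. Krt5, the basal type II chain (chromosome 15, 101707070 to 101712898), stood at 22409, 14719 and 15757 CPM in WT 2, WT 3 and WT 4 and at 23621, 18258 and 15959 CPM in iKO 3, iKO 4 and iKO 33. Krt14, its type I partner (chromosome 11, 100203162 to 100207548), stood at 18020, 13899 and 12916 CPM in WT and at 21993, 14373 and 13920 CPM in iKO, in the same order of libraries. The groups overlap for both genes, WT 2 and iKO 3 being the highest of their groups each time. In edgeR the log2 fold change was 0.13 (SE 0.21, adjusted p = 0.826) for Krt5 and 0.17 (SE 0.22, adjusted p = 0.778) for Krt14. K14CreERT2 uses the promoter of Krt14, whose own transcript is counted here, and the construct itself was not measured. Per kilobase of exon, the 2 partners were close to 1 to 1: the ratio of Krt5 to Krt14 was 0.940 ± 0.0804 in WT and 0.931 ± 0.0794 in iKO (SD, n = 3), within 0.847 to 1.02 over the 6 libraries.

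Krt15, a type I keratin of basal cells and of the hair follicle bulge where stem cells reside (chromosome 11, 100131758 to 100135928), stood at 7.84, 18 and 12.3 CPM in WT and at 2.88, 8.98 and 3.85 CPM in iKO. The groups overlap through iKO 4, which lay above WT 2. The mean was 12.7 ± 5.08 CPM in WT and 5.23 ± 3.28 CPM in iKO (SD, n = 3), which fitted as -1.28 on the log2 scale (SE 0.49) with an adjusted p of 0.289 in edgeR and 0.0891 in DESeq2. Without iKO 4 the log2 fold change was -1.91, and the adjusted p in edgeR stayed above 0.05.

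The wound and appendage group has 7 members, all of which passed the count filter. In edgeR none passed the test, 3 fitted changes were positive and 4 negative, and the median log2 fold change was -0.07. Krt6a, the main type II chain of activated keratinocytes, stood at 9965, 9683 and 6777 CPM in WT and 13097, 6716 and 8142 CPM in iKO. Krt17, a type I chain of activated keratinocytes and the outer root sheath, stood at 8863, 7899 and 5124 CPM in WT and 9416, 4911 and 6006 CPM in iKO. Krt16, the type I chain paired with Krt6a after injury, stood at 3364, 2654 and 1496 CPM in WT and 3980, 771 and 2414 CPM in iKO. These 3 genes ran together across the libraries: iKO 3 held the highest and iKO 4 the lowest value each time, and WT 4 was the lowest of WT. The log2 fold changes were 0.08 (SE 0.27) for Krt6a, -0.11 (SE 0.29) for Krt17 and -0.07 (SE 0.56) for Krt16, with adjusted p-values from 0.902 to 0.969 in edgeR, so the spread inside each group was wider than the difference between them. An SE of 0.56 leaves room for a change of Krt16 by more than a doubling or halving.

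Krt6b, a close paralog of Krt6a, stood at 402, 340 and 267 CPM in WT and 369, 85.8 and 163 CPM in iKO. The groups overlap through iKO 3, which was as high as the WT libraries, and the other iKO libraries lay below all of WT. The log2 fold change was -0.71 (SE 0.48, adjusted p = 0.548, edgeR). Without iKO 3 it was -1.44 and without iKO 4 -0.34. Krt42, Krt75 and Krt79, the remaining members, had means from 0.544 CPM (Krt79, WT) to 34.1 CPM (Krt42, iKO). Krt42 had its iKO mean set by iKO 33, at 72.8 CPM, with the other 5 libraries at 7.02 to 25.0 CPM. It is named after its values were seen.

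The suprabasal keratins were low in every library and lower in iKO for the pair Krt1 and Krt10, without passing the edgeR test. Krt10, the type I chain of the differentiating layers (chromosome 11, 99385254 to 99389364), stood at 12.3, 23.6 and 12.3 CPM in WT and at 7.64, 9.89 and 4.88 CPM in iKO. Krt1, its type II partner (chromosome 15, 101845426 to 101850794), stood at 3.50, 3.56 and 3.13 CPM in WT and at 2.21, 2.53 and 0.400 CPM in iKO. All iKO values lie below all WT values for both genes. WT 3 stands apart from the other WT libraries for Krt10, and iKO 33 is the lowest library for both.

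For Krt10 the log2 fold change was -1.11 (SE 0.36) with an unadjusted p of 0.0171 and an adjusted p of 0.226 in edgeR, against an adjusted p of 0.0455 in DESeq2. Without WT 3 the change was -0.72. For Krt1 it was -1.004 (SE 0.61, adjusted p = 0.494, edgeR), and without iKO 33 it was -0.52. The length-scaled ratio of Krt1 to Krt10 was 0.110 ± 0.0339 in WT and 0.100 ± 0.0532 in iKO (SD, n = 3), with overlap. Krt77 passed the filter at 0.247 to 1.88 CPM with overlapping groups. Krt2 and Krt9, keratins of the outer epidermal layers and of the footpad, had 3 and 6 counts over all libraries and were not tested.

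Among simple epithelial keratins, Krt8 and Krt18 stood higher in iKO, with the largest fitted changes of the 26 keratins tested, and Krt7 stood lower. Krt8, the type II chain, stood at 26.3, 10.7 and 47.5 CPM in WT 2, WT 3 and WT 4 and at 129, 491 and 105 CPM in iKO 3, iKO 4 and iKO 33. Krt18, the type I chain, stood at 2.49, 0.595 and 7.96 CPM in WT and at 23.6, 92.3 and 28.3 CPM in iKO. The groups do not overlap for either gene, iKO 4 is far above the other iKO libraries for both, and WT 3 is the lowest and WT 4 the highest WT library for both. The mean of Krt8 was 28.1 ± 18.5 CPM in WT and 241 ± 216 CPM in iKO (SD, n = 3), an 8.58-fold ratio of means. The mean of Krt18 was 3.68 ± 3.83 CPM in WT and 48.1 ± 38.4 CPM in iKO, a 13.1-fold ratio. In bulk RNA, a change in how many cells express a gene and a change in RNA per cell cannot be told apart.

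For Krt8 the log2 fold change was 3.11 (SE 0.77) with an unadjusted p of 0.00507 and an adjusted p of 0.158 in edgeR, against 0.0207 in DESeq2. For Krt18 it was 3.73 (SE 0.98), with an unadjusted p of 0.00666 and an adjusted p of 0.170 in edgeR, against 0.0184 in DESeq2. The call thus depends on the count model and on its settings. DESeq2 on the count table as deposited, with a prior on fold changes, gave adjusted p-values of 0.0554 for Krt8 and 0.0928 for Krt18. That fit also kept the summary rows of HTSeq, the counting tool, and used no count filter. Leaving out iKO 4 gave log2 fold changes of 2.06 for Krt8 and 2.83 for Krt18, and leaving out WT 4 gave 3.72 and 5.12.

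**Figure D3:**
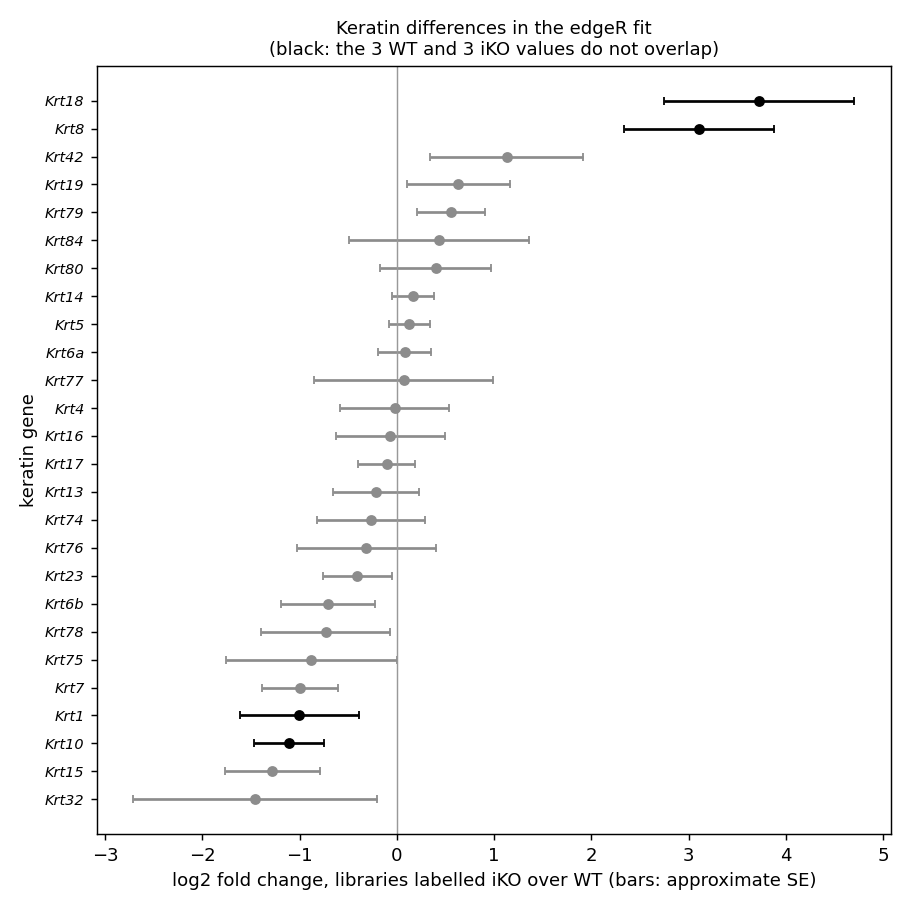
Log2 fold change (iKO minus WT) in edgeR of the 26 keratins that passed the count filter, in order of size, with bars of 1 approximate SE and with black for keratins whose groups did not overlap. Krt18 (3.73) and Krt8 (3.11) lie farthest to the right, and most other members lie within about 1 of 0.

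Krt8 and Krt18 ranked the WT libraries in the same order, but their proportion was not constant. Per kilobase, Krt8 exceeded Krt18 by a factor of 7.75, 13.2 and 4.37 in WT 2, WT 3 and WT 4 and of 4.00, 3.90 and 2.72 in iKO 3, iKO 4 and iKO 33. All iKO ratios lie below all WT ratios, with means of 8.43 ± 4.43 and 3.54 ± 0.715 (SD, n = 3). At 0.595 to 7.96 CPM of Krt18 in WT, the WT ratios rest on a low denominator. Even at their highest the pair remained small beside the basal keratins. Per kilobase, Krt8 amounted to 0.184% ± 0.136 of Krt5 in WT and 1.45% ± 1.35 in iKO, the highest library being iKO 4 at 3.02%. Krt18 amounted to 0.0325% ± 0.0376 of Krt14 in WT and 0.389% ± 0.349 in iKO.

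**Figure D4:**
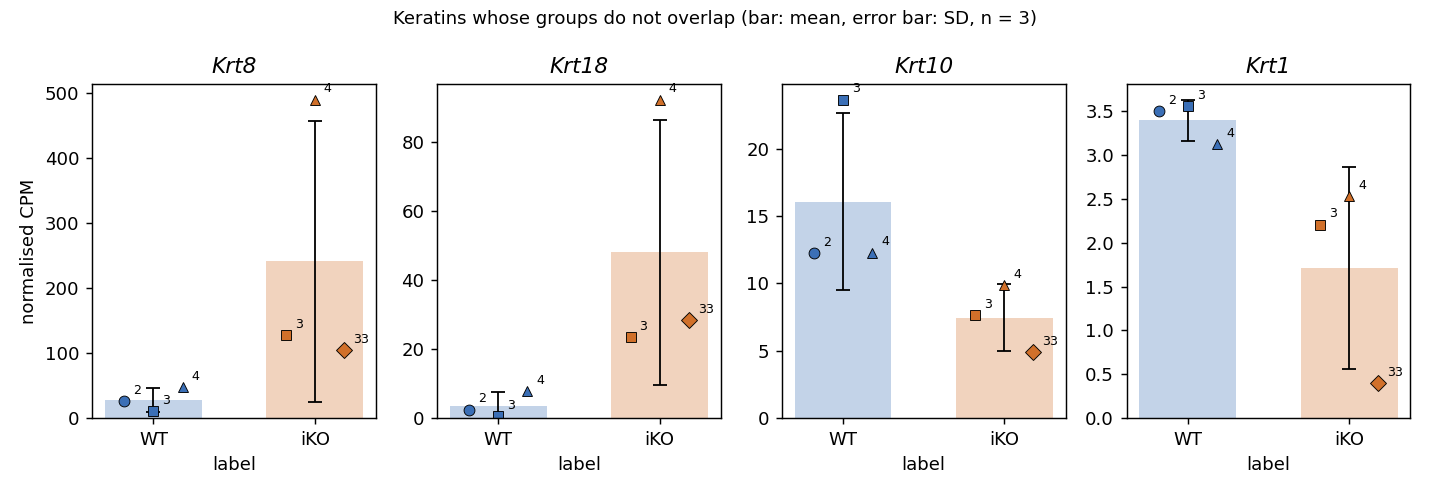
Normalised CPM, on linear axes, of the keratins whose groups did not overlap, with 1 point per library and its number beside it, the bar at the group mean and the error bar at 1 SD (n = 3). In Krt8 and Krt18 the 3 iKO points lie above all WT points, with iKO 4 the highest at 491 and 92.3 CPM, and in Krt10 and Krt1 they lie below.

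Merkel cells express Krt8 and Krt18, so their markers are given beside the pair. Of 4 Merkel cell markers only Sox2 passed the filter, at 0.830, 0.317 and 0.540 CPM in WT and 4.0, 1.0 and 5.6 CPM in iKO, with no overlap (log2 fold change 2.71, SE 0.69, adjusted p = 0.163 in edgeR and 0.00367 in DESeq2). The library highest in Krt8 and Krt18, iKO 4, was the lowest iKO library for Sox2. The defining marker Atoh1, the transcription factor that specifies Merkel cells, had no count in any library, and Isl1 and Piezo2 had 13 and 21 counts over all of them. Krt20, a keratin also of Merkel cells, did not pass the filter and is not among the 4 markers. It had 14, 10 and 58 counts in WT and 3, 7 and 14 counts in iKO. The 4 markers summed to 0.355 to 1.11 CPM in WT and 1.09 to 5.69 CPM in iKO. The sums of the groups overlap narrowly. Summed levels also overlapped for melanocyte, fibroblast and immune genes: melanocyte genes summed to 3.13 to 4.46 CPM in WT and 3.65 to 5.42 CPM in iKO with Dct at 0, and fibroblast genes to 0.692 to 2.39 and 0.959 to 3.18 CPM with Dcn and Lum at 0. Immune genes summed to 0.152 to 0.313 and 0.188 to 0.378 CPM with Cd207 at 0. Endothelial genes did not overlap, at 9.31 to 19.0 CPM in WT and 7.29 to 8.94 CPM in iKO, with 2 of 4 genes passing the filter. The part of other cell types in the keratin values was not tested.

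The neighbouring genes tested had smaller fitted changes than the pair. Within 100 kb of Krt8 and Krt18 the annotation also holds Tns2, Gm36026 and Gm49434, for which no row of that symbol passed the filter. There were 5 other genes in this region that passed, Krt4, Krt79, Krt78, Eif4b and Spryd3. None of these 5 had an unadjusted p under 0.05. Spryd3 was the one of them whose groups did not overlap, at 43.2 ± 2.84 CPM in WT and 51.1 ± 6.60 CPM in iKO (SD, n = 3; log2 fold change 0.24, SE 0.13). Their log2 fold changes ran from -0.73 (Krt78, SE 0.67) to 0.55 (Krt79, SE 0.35). Eif4b, a translation initiation factor gene and the nearest of these on the Krt18 side, averaged 668 CPM in WT and 610 CPM in iKO, and its fitted change was -0.13 (SE 0.11).

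Krt7, a type II chain of ducts and glands (chromosome 15, 101411043 to 101430313), stood at 30.8, 12.4 and 22.0 CPM in WT and at 15.9, 8.02 and 8.77 CPM in iKO. The groups overlap only through iKO 3, which lay above WT 3. The log2 fold change was -0.998 (SE 0.39), with an unadjusted p of 0.0384 and an adjusted p of 0.304 in edgeR. Krt19, a type I chain of simple epithelia and of follicle cells, stood between 1.66 and 9.43 CPM over the 6 libraries with overlap (0.63, SE 0.53, adjusted p = 0.634). Krt20, a keratin of gut epithelium and also of Merkel cells, had 14, 10 and 58 counts in WT and 3, 7 and 14 counts in iKO and did not pass the filter. WT 4 stands above the other 5 libraries, and no fold is given.

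Krt4 and Krt13, the pair of the oral and oesophageal lining, were near 1 CPM or below. Krt4 stood at 0.369, 0.152 and 0.512 CPM in WT and 0.384, 0.400 and 0.212 CPM in iKO. Krt13 stood at 1.11, 0.684 and 1.02 CPM in WT and 1.15, 0.422 and 0.835 CPM in iKO. The groups overlap for both, and the log2 fold changes were -0.02 (SE 0.56) and -0.22 (SE 0.44). Of the 6 keratins of mucosa and cornea 4 passed the filter, all with negative fitted changes and none past the test, and Krt78 was the most abundant with 8.24 to 49.98 CPM. Krt12, the corneal keratin, and Krt24 had 3 and 25 counts in all.

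Keratins of the hair had few or no counts. Of 8 inner root sheath keratins 1 passed the filter, Krt74, at 0.188 to 0.507 CPM. Of 15 hair and nail keratins, 2 passed, Krt32 and Krt84. Krt32, a hair cuticle keratin named after its values were seen, ran from 0.133 CPM in iKO 4 to 10.5 CPM in WT 3, with a log2 fold change of -1.46 (SE 1.26, adjusted p = 0.643, edgeR). Krt32 and Krt75 were each lowest of their group in WT 4 and iKO 4. No count fell on Krt25, Krt33b, Krt35 or Krt81, where the 3-count limit that a count of 0 allows is 0.0360 CPM in iKO 33, the deepest library, and 0.137 CPM in WT 2, the shallowest. These limits cover counting error only. The other untested members of these groups had 1 to 66 counts over all libraries, Krt36 having the most.

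Of the 3 keratins with no role fixed, Krt80, a widely expressed type II chain, was the most abundant, at 158, 168 and 64.5 CPM in WT and 325, 90.6 and 99.5 CPM in iKO. The groups overlap, and its log2 fold change of 0.40 (SE 0.57, adjusted p = 0.799, edgeR) became -0.45 without iKO 3. Krt23 stood between 5.69 and 14.7 CPM with overlapping groups, and Krt222 had 20 counts over all libraries.

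Summed per kilobase, type II chains were somewhat below type I chains in each library. The ratio of type II to type I was 0.802, 0.740 and 0.871 in WT 2, WT 3 and WT 4 and 0.778, 0.956 and 0.804 in iKO 3, iKO 4 and iKO 33. The means were 0.805 ± 0.0657 and 0.846 ± 0.0962 (SD, n = 3), with overlap. Without length scaling the ratios of counts were above 1, at 1.09 in WT and 1.14 in iKO, because type II transcripts are longer.

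Keratins share sequence, so counts of close relatives may be split between them or lost, depending on read length and on how multiply mapping reads were treated, neither of which is given in the sources used here. In GENCODE M21 transcripts, 62.0% of the 50-base windows of Krt6a and 50.1% of those of Krt6b also occur in another gene. The share was 37.6% for Krt16 and 29.7% for Krt8, in the latter mostly with the pseudogene Krt8-ps (26.9%). It was 14.4% for Krt14, 12.2% for Krt5 and 4.00% for Krt17, and 2.45% or less for Krt10, Krt18 and Krt1. Values of Krt6a, Krt6b, Krt16 and Krt8 are therefore the more uncertain ones. Krt18 shares 0.720% of its windows. Whether shared reads shaped the difference of Krt8 between the groups was not tested.

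Genes that anchor or bundle keratin filaments, with the other intermediate filament genes, were measured as a list of 38, of which 37 were in the table and 28 passed the filter. In edgeR 0 passed the adjusted threshold, 0 had an unadjusted p under 0.05 with higher values in iKO and 4 with lower values, where 7.32% and 7.7% of all genes were, and the median log2 fold change was -0.04. The 4 were Lmnb1, Dst, Tchh and Hrnr. Lmnb1, a nuclear lamin, stood at 249 ± 1.92 CPM in WT and 176 ± 27.9 CPM in iKO (SD, n = 3), which fitted as -0.50 on the log2 scale (SE 0.13, adjusted p = 0.170 in edgeR, 0.0286 in DESeq2). Dst, a linker of keratin to hemidesmosomes, had -0.58 (SE 0.19, adjusted p = 0.224 in edgeR). Tchh and Hrnr encode proteins of the inner root sheath and the cornified layer. Tchh had -1.09 (SE 0.39) and Hrnr -3.84 (SE 1.57), with adjusted p-values of 0.267 and 0.320 in edgeR, and Hrnr reached 3.47 CPM in WT 3 and at most 0.738 CPM elsewhere. DESeq2 called 1 gene of the list, Lmnb1, lower in iKO, where it called 3.15% of all genes lower. In limma-voom 0 of the list passed, where 59 of all 12672 genes did.

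Of 32 transcription factors and receptors known to act on keratin genes, 30 passed the filter, with 15 positive and 15 negative fitted changes and a median of 0.02. In edgeR 0 passed the adjusted threshold, and at an unadjusted p under 0.05 there were 4 higher and 4 lower, where 7.32% and 7.7% of all genes were. Trp63, the p63 gene that maintains basal keratinocytes and drives Krt5 and Krt14, stood at 331, 307 and 323 CPM in WT and 203, 191 and 205 CPM in iKO. The groups lie well apart with little spread, and the log2 fold change was -0.68 (SE 0.10), with an adjusted p of 0.0529 in edgeR and 9.09e-09 in DESeq2. Grhl3, a factor of epidermal barrier formation, stood at 40.1, 38.7 and 29.4 CPM in WT and 103, 58.1 and 60.9 CPM in iKO (1.03, SE 0.25, adjusted p = 0.152 in edgeR, 0.00483 in DESeq2). Foxn1, a factor of hair and keratinocyte differentiation, had 1.36 (SE 0.42, adjusted p = 0.217 in edgeR, 0.0231 in DESeq2), and Fosl2, an AP-1 subunit, 0.30 (SE 0.10, adjusted p = 0.249 in edgeR). DESeq2 called 3 genes of the list, Grhl3 and Foxn1 higher and Trp63 lower in iKO, where it called 3.34% of all genes higher and 3.15% lower. limma-voom called 1 gene of the list, where 59 of all 12672 genes passed.

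The authors' deposited table of their own DESeq2 comparison lists Krt8 with a log2 fold change of 0.82 (SE 0.28) and Krt18 with 0.70 (SE 0.26), both without a p-value, and Krt80 with 0.23, likewise without one. In the authors' deposited table, 256 of 12766 genes with a mean signal above 10 have no p-value (2.01%), and 3 of 27 keratins above that signal are among them. Krt10 has a log2 fold change of -0.81 and an adjusted p of 0.0436 in the authors' deposited table. Krt15 and Krt7 have adjusted p-values of 0.0848 and 0.116 in the authors' deposited table. Refitting the count table as deposited by DESeq2 with a prior on fold changes, an alternative chosen after seeing the data, gave 0.81 for Krt8 (adjusted p = 0.0554), 0.68 for Krt18 (adjusted p = 0.0928) and -0.81 for Krt10 (adjusted p = 0.0416). That refit kept the HTSeq summary rows and used no count filter. The log2 fold changes of 3.11 and 3.73 given above come from edgeR without such a prior.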

How the data were processed

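Messenger RNA libraries (TruSeq RNA v2, from total RNA) were made from mouse epidermal keratinocytes, 3 samples of each group, per the labels. The submitters' processing notes name the build mm10 and, with no version, TopHat2, HTSeq, DESeq and DESeq2. Strand setting, read length and gene annotation are not given in the sources.

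The authors deposited raw whole-number counts by gene symbol. The 5 HTSeq summary rows were left out, except in the DESeq2 fit with a prior on the table as deposited. They took 34.8% to 35.5% of each WT library and 27.4% to 32.0% of each iKO library, with no overlap. Whether this difference bears on the comparisons was not tested. Per the file headers, the other deposited table is a DESeq2 result with a mean signal, log2 fold changes and their SE, the Wald statistic as a score, and raw and adjusted p-values. The iKO column numbered 33 matches no sample title and was used as an iKO replicate without a number of its own. No 2 libraries of a group agreed within sampling noise (smallest chi-square per degree of freedom 38.9).

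The counts were fitted with edgeR 4.0.16 in R 4.3.3: filterByExpr (minimum count 10), TMM scaling, and glmQLFit and glmQLFTest with robust estimation and group as the only term, two-sided, with Benjamini-Hochberg adjustment over 12672 genes and a threshold of 0.05. The test was checked on simulated data. Each SE was approximated from the fitted change and its F statistic (size of the change over root F). Values per kilobase use the exon length of GENCODE M21 on mm10. DESeq2 1.42.0, limma-voom (limma 3.58.1), other scaling and filters, a block on replicate number and leaving out each library were alternatives. Libraries of 21943467 to 83337263 gene counts set the precision of low genes.

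The keratins, role groups and lists were chosen with earlier results of these data known. Values per library are given for keratins with a mean of at least 100 CPM, an unadjusted p under 0.05, or groups without overlap at a mean of at least 1 CPM, and for their known partners. Of each list, up to 4 genes with the smallest p are named. Sequences are those of RefSeq, and protein sequences were not used here.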

Additional observations from a re-analysis of the deposited data

How the results depend on the processing

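With 3 libraries a group, low-count keratins carry wide errors, and 26 of 52 could not be tested. In edgeR the number of keratins past an adjusted p of 0.05 was 0 under all scaling and filter choices and without any 1 library. It was also 0 in limma-voom, but 3 in DESeq2 without a prior on fold changes. With such a prior, on the count table as deposited, Krt8 and Krt18 did not pass in DESeq2 (adjusted p = 0.0554 and 0.0928). That fit also kept the HTSeq summary rows and used no count filter. Which of these settings moved the calls was not tested. Keratins with an unadjusted p under 0.05 numbered 5, and from 2 (without iKO 33) to 8 (without iKO 3) when each library was left out. Those without overlap numbered 4, from 4 to 9 without 1 library, and 6 with no count filter. Groups of fewer libraries overlap less readily for any gene. For neither count was the share of all genes counted under these alternatives. The linker list had 1 call in DESeq2. The regulator list had 3 in DESeq2, 1 in limma-voom and 1 with no count filter. Over all genes, DESeq2 called 774, limma-voom 59 and edgeR with no count filter 76 of 18089. The cause of these differences between settings was not tested.

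Only 2 numbers, 3 and 4, occur in both groups, and they are not known to pair the samples: deviations from the group means correlated at 0.297 for number 3 and 0.661 for number 4, but WT 2 with iKO 3 reached 0.325 and WT 3 with iKO 33 0.233. With a replicate block over those 4 libraries, 103 of all 12719 genes tested passed an adjusted p of 0.05. Among them were 2 keratins (Krt8 at 3.48 and Krt18 at 4.29) and 1 gene of the regulator list. At an unadjusted p under 0.05 there were 9 keratins, and the share of all genes was not counted for this fit. The same 4 libraries without the block, chosen after seeing the data, gave 4 of 12719 genes that passed. Of the keratins 0 passed and 3 had an unadjusted p under 0.05.

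Without length scaling the type II to type I ratio was 1.09 in WT and 1.14 in iKO. Several fitted changes turned sign. Among the 15 keratins given per library, Krt17 became 0.10 with the replicate block and 0.14 in the 4 libraries without it, Krt16 0.19 in the latter, and Krt4 0.12 in limma-voom, 0.41 with the block and 0.30 without. Leaving out each library gave ranges of -0.46 to 0.44 for Krt4, -0.042 to 0.34 for Krt5, -0.24 to 0.27 for Krt6a, -0.54 to 0.090 for Krt13, -0.078 to 0.32 for Krt14, -0.65 to 0.35 for Krt16, -0.42 to 0.082 for Krt17 and -0.45 to 0.71 for Krt80. Of the other keratins, Krt42 ran from -0.091 to 1.67, Krt74 from -0.74 to 0.037, Krt75 from -1.58 to 0.083, Krt76 from -0.78 to 0.14, Krt77 from -0.77 to 1.496 and Krt84 from -0.87 to 0.97 when each library was left out. The 15 kept direction and side of the threshold in 230 other fits. In 5 fits one newly passed: Krt8, Krt18 and Krt10 in DESeq2, and Krt8 and Krt18 with the replicate block.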
